A study of Mus musculus with 2 samples.

Results

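Non-cycling stromal progenitor cells of the fetal mouse ovary were described from single-cell RNA sequencing of ovaries at embryonic day E15.5. Ovaries came from embryos with a constitutive deletion of exon 3 of Nr3c1, the gene of the glucocorticoid receptor (GR), made with a β-actin Cre (KO), and from wild-type embryos (WT) of heterozygote intercrosses. Both genotypes carried an OCT4-GFP (Pou5f1-EGFP) transgene that is fluorescent in germ cells. The 2 KO embryos were pooled into 1 library and the 4 WT embryos into another, after removal of the mesonephros and after sorted germ and somatic cells had been remixed at 60 to 40, although the labels describe the samples as OCT4-GFP germ cells. Each genotype was therefore 1 library without a replicate, so that a difference of genotype cannot be told apart from one between pools of embryos, sorts or captures, and no test was run.

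The cells were selected by their own transcripts, from unique molecular identifiers (UMIs), each of which stands for 1 captured transcript, scaled to 10000 per cell. Barcodes with at least 3000 UMIs and less than 10% mitochondrial UMIs were kept. Somatic cells had a sum below 10 for the germ cell genes Dazl, Ddx4, Smc1b, Sycp1, Sycp3 and Stra8. Stromal cells were somatic cells with a sum of at least 15 for Col1a1, Col1a2 and Col3a1, with at least 1 UMI of Tcf21 or Pdgfra, with a sum below 5 for the epithelial genes Krt19, Krt7 and Upk3b, and with sums below 3 for the perivascular genes Rgs5, Kcnj8 and Notch3 and for the endothelial genes Cdh5, Egfl7 and Cldn5. Non-cycling cells had a sum below 2 for Top2a, Mki67 and Cdk1. This gave 1202 non-cycling stromal cells, 425 in the WT and 777 in the KO library, of 6682 somatic cells, 25395 cells within the limits and 29259 barcodes in all.

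The ovarian stroma is the connective tissue between the nests of germ cells with their pregranulosa cells and the surface epithelium. Its mesenchymal progenitors build a matrix of fibrillar collagens, are marked by the transcription factor Tcf21 and by Pdgfra, the receptor of platelet-derived growth factors, and contribute later to fibroblasts and to the theca layer of the follicle. GR is a nuclear receptor that binds glucocorticoids and regulates transcription in many mesenchymal cell types.

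Non-cycling stromal cells made up 19.97% of WT somatic cells (exact Clopper-Pearson 95% interval 18.3 to 21.7%) and 17.1% of KO somatic cells (15.98 to 18.2%). The sort and the remixing set the share of germ cells and may also bear on the shares within soma, and all intervals cover counting error only. Among stromal cells, 72.6% (68.8 to 76.2%) were non-cycling in WT and 71.5% (68.8 to 74.2%) in KO, and these intervals overlapped. The selected cells were less deeply covered in KO, with a median of 5787 UMIs (3016 to 16545) and 2133 genes, than in WT, with a median of 8813 UMIs (3290 to 19082) and 2793 genes. Their median mitochondrial share was 4.59% in WT and 3.72% in KO. Of the 75 barcodes that the libraries shared, none marked a selected cell in both.

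The limits cut through continuous values. The last cells inside the collagen limit had sums of 15.0 (WT) and 15.1 (KO) and the first outside had 14.9 and 15.0, whereas the sums around the cycling limit were 1.98 and 2.05 in WT and 1.99 and 2.01 in KO. No UMI of Top2a, Mki67 or Cdk1 was seen in 276 of the 425 WT and 629 of the 777 KO cells. These counts depend on depth, which was lower in KO (median of 5787 UMIs, against 8813 in WT). They therefore do not compare cycling between the genotypes. A further 32 WT and 109 KO cells met every other criterion but held no UMI of Tcf21 or Pdgfra.

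The label was set beside the markers of stromal progenitors and of the other cells of the ovary, as a description. Levels are summed UMIs of a class per 1e+06 UMIs of that class (CPM). The 6 stromal markers Col1a1, Col3a1, Tcf21, Pdgfra, Ptn and Mfap4, of which the first 4 were used in the selection, summed to 5548 CPM in WT and 5452 CPM in KO non-cycling stroma, against 557 and 625 CPM in non-stromal somatic cells. Ptn, a heparin-binding growth factor that the selection did not use, stood at 1977 CPM in WT and 2020 CPM in KO, and was higher than in non-stromal soma by 3.24 and 3.10 on the log2 scale. Mfap4, a protein of elastic microfibrils, stood at 686 and 707 CPM, higher by 3.86 and 3.60.

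Marker lists of the other cells were summed in the same way. The selection itself limited Krt19, Krt7 and Upk3b of the epithelial list. It also limited Rgs5, Kcnj8 and Notch3 of the perivascular list and Cdh5, Egfl7 and Cldn5 of the endothelial list. Low sums of these lists therefore follow in part from the selection. The pregranulosa and epithelial comparison cells were chosen on some of their own markers, so their high sums follow in part from that choice. The 13 pregranulosa markers, among them Foxl2, Fst and Kitl, summed to 545 CPM (WT) and 593 CPM (KO). In cells selected as pregranulosa they summed to 5454 and 5558 CPM. These were non-stromal somatic cells with a sum of at least 5 for Fst, Wnt6, Kitl, Irx3 and Foxl2. Their collagen, epithelial, perivascular and endothelial sums were below the limits given above, and immune and erythroid genes were not screened. Wnt4, 1 of the 13, was itself abundant in the stroma (374 and 343 CPM) and made up most of the stromal sum. The 10 surface epithelium markers summed to 64.7 and 104 CPM (3039 and 2950 CPM in epithelial cells), with Msln at 0 in WT. The 10 immune markers summed to 2.09 and 4.79 CPM and the 10 endothelial markers to 44.2 and 41.0 CPM, and the 5 mesonephric tubule markers to 1.83 and 1.53 CPM with Pax2 and Cdh16 at 0. Germ cell markers that the selection did not use summed to 117 and 135 CPM, which is 2.73% and 3.04% of their level in germ cells and near the 120 and 128 CPM of non-stromal soma. The 9 perivascular markers summed to 46.3 and 41.4 CPM, against 32.2 and 41.8 CPM in non-stromal soma, with Rgs4 and Higd1b at 0 in KO. The 6 Schwann and neural crest markers summed to more than in non-stromal soma, at 185 and 207 CPM against 27.0 and 27.3 CPM, while the defining markers Sox10 and Foxd3 were at 0 in both. Erythroid markers summed to 93.2 CPM in WT and 850 CPM in KO, most of which lay in 1 KO barcode. The part of RNA from other cells in the levels below was not tested.

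What set these cells apart was first compared with all non-stromal somatic cells (1543 WT, 3468 KO), separately in each library. Because the cells were selected in this contrast, the values are a description. A gene was counted as higher or lower when it held at least 100 UMIs over both sides and its log2 CPM ratio was at least 1 in the same direction in both libraries. Of 10614 genes, 607 (5.72%) were higher and 1075 (10.1%) were lower, and 1 gene passed the limit in opposite directions in the 2 libraries. The median log2 ratio over all these genes was -0.02 in WT and 0.00 in KO.

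The 20 genes that were highest and had not been used in the selection had varied roles, and 3 of them encode secreted regulators. Sostdc1, a secreted inhibitor of BMP and WNT ligands, was at 25.7 CPM (WT) and 32.7 CPM (KO), against 1.06 and 1.80 CPM in non-stromal soma, a log2 ratio of 4.59 (3.92 to 5.33) and 4.18 (3.73 to 4.65). Sfrp1, which binds and sequesters WNT ligands, was at 588 and 613 CPM, against 30.9 and 48.3 CPM. Inhba, which encodes a subunit of activins and inhibins, was at 35.6 and 29.0 CPM, against 2.13 and 2.48 CPM.

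Syt1, a calcium sensor of vesicle release best known from neurons, had the largest WT ratio of the 20 highest genes. Its level was 75.9 and 87.4 CPM, against 2.17 and 5.34 CPM, a log2 ratio of 5.13 in WT and 4.03 in KO. Il33, which encodes an alarmin cytokine kept in nuclei, was at 41.4 CPM in WT and 48.4 CPM in KO, with log2 ratios of 4.19 and 3.72. Hsd11b2, the enzyme that inactivates glucocorticoids by oxidation, was at 81.4 and 72.1 CPM, with log2 ratios of 3.60 (3.31 to 3.90) and 3.49 (3.23 to 3.75), and was at 1.54 and 1.01 CPM in pregranulosa cells. The rest of the 20 were Ogn, Mfap4, Tmem119, Itih5, Sncaip, Dnm3os, Col13a1, Col4a4, Frem1, Ndnf, Fmo1, Rprml, Lrfn5 and Col6a3, with log2 ratios between 3.33 and 4.76 in the 2 libraries.

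**Figure D1:**
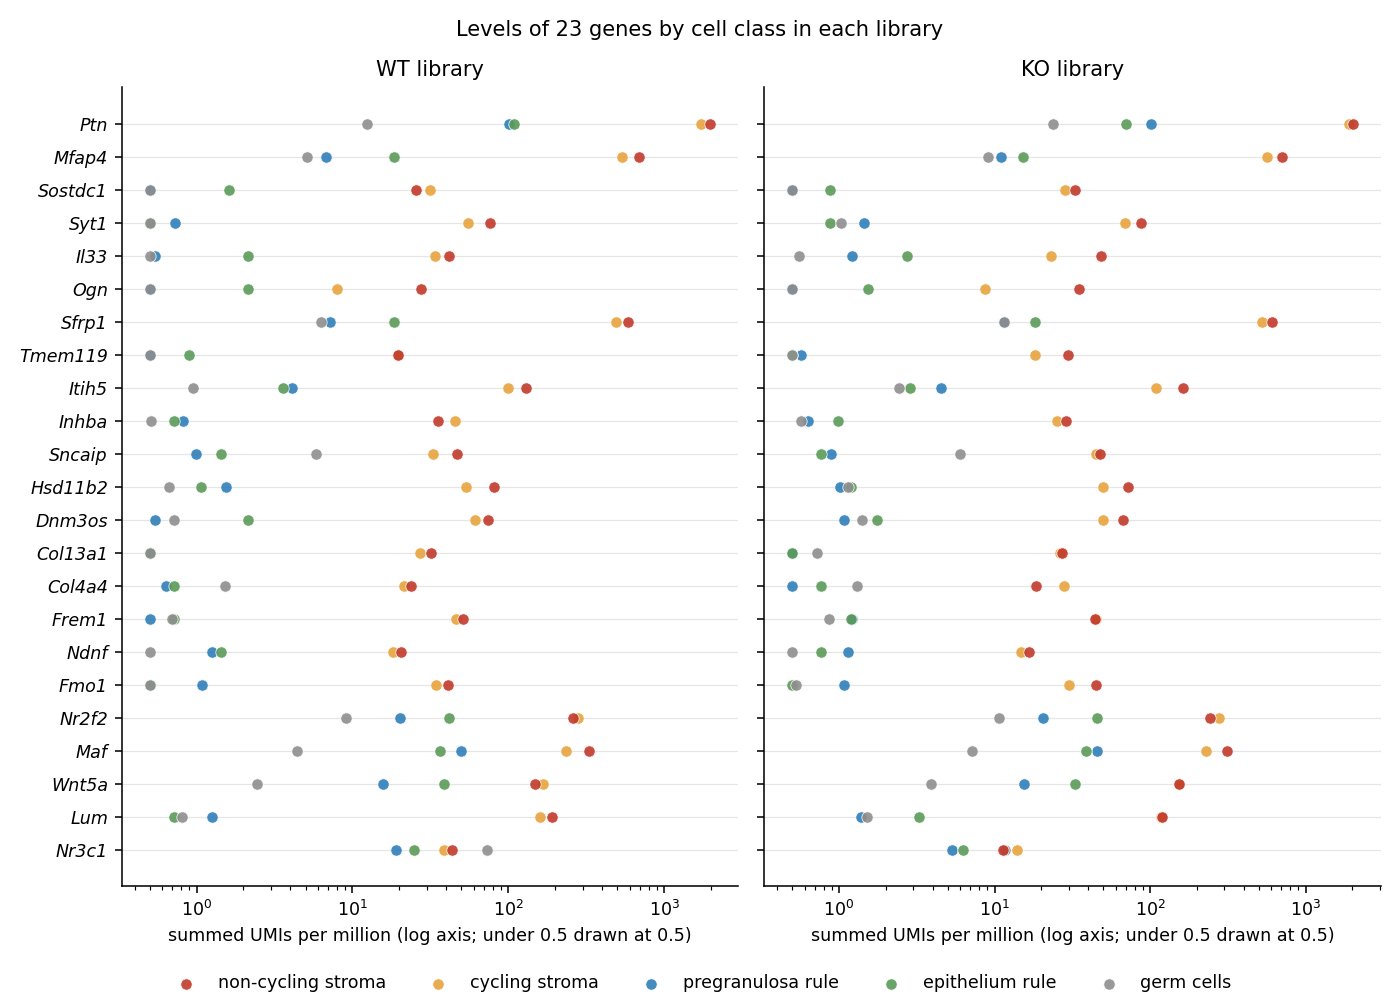
Levels of 23 genes in summed UMIs per 1e+06 (horizontal log axis, values under 0.5 drawn at 0.5) in the WT library (left) and the KO library (right), with 1 point for each cell class. Non-cycling and cycling stroma lie close together for most genes and to the right of the pregranulosa, epithelial and germ cell points, except for Nr3c1, which was also present in those cells and lower in every class of the KO library.

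The 10 genes that were lowest against non-stromal soma were Hbb-bt, Hbb-bs, Ly6d, Lgals2, C1qa, Lyz2, Cxcl2, C1qb, Ooep and Tyrobp, and all but the haemoglobin genes had at most 3 UMIs in the stroma of either library. Pregranulosa cells hardly held several of them either. C1qa had 0 UMIs in WT non-cycling stroma and 65.0 CPM in WT non-stromal soma and also 0 UMIs in WT pregranulosa cells.

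Collagens and other matrix genes were mostly higher. Of 23 collagen genes of a list with enough UMIs, 16 were higher, 1 was lower and 6 did not pass. Their median log2 ratio was 2.17 in WT and 2.08 in KO. The 16 include Col1a1, Col1a2 and Col3a1, which chose the cells. Col6a3, a chain of the beaded microfibrils of collagen VI, was at 104 CPM in WT and 89.4 CPM in KO, against 9.32 and 8.91 CPM. The basement membrane chains Col4a1 and Col4a2 were close to their level elsewhere, with log2 ratios of -0.25 and -0.41 for Col4a1. Col4a4, a further collagen IV chain that was not in the list, was among the 20 highest genes named above. Col18a1, another basement membrane collagen, was the lower gene, at 16.2 and 12.2 CPM against 42.9 and 48.4 CPM.

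Of 30 matrix glycoproteins and proteoglycans, 21 were higher and 3 were lower (Efemp1, Thbs2 and Npnt), with medians of 2.03 and 1.84. Dcn, the small proteoglycan decorin that binds collagen fibrils, was at 749 CPM in WT and 753 CPM in KO, against 100 and 137 CPM. Lum, the related proteoglycan lumican (GRCm38 chromosome 10, 97565128 to 97572703), was at 191 and 119 CPM, against 6.66 and 11.9 CPM. Fibrillin, elastin and their partners were among those higher. Fbn1 was at 105 and 106 CPM with log2 ratios of 2.17 and 1.95, and Eln at 70.7 and 69.7 CPM with ratios of 1.25 and 1.15. Of 17 enzymes that modify, cross-link or cleave procollagen, 7 were higher and none was lower, with medians of 0.94 and 0.83. The cross-linking enzyme Loxl1 was at 136 and 147 CPM, with log2 ratios of 3.07 and 3.23, whereas P4hb and the chaperone Serpinh1, which many secretory cells use, did not pass in both libraries.

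Transcription factors gave a more divided picture. Of 27 mesenchymal and gonadal factors, 16 were higher and 4 were lower, with medians of 1.63 and 1.53. Twist1, a mesenchymal bHLH factor, was at 88.0 and 87.0 CPM, a log2 ratio of 3.45 in WT and 3.08 in KO. Nr2f2 (COUP-TFII), a nuclear receptor of gonadal interstitial cells, was at 261 CPM in WT and 243 CPM in KO, with ratios of 2.61 and 2.30. Maf, a bZIP factor, was at 329 and 314 CPM (2.11 and 2.24). The lower genes were Lhx9, Nr5a1, Klf4 and Sox9. Nr5a1, the master regulator of steroidogenic genes, was at 13.6 and 14.2 CPM against 35.1 and 33.1 CPM, and Lhx9, a factor of the early gonad and its epithelium, at 44.5 and 69.3 CPM against 207 and 232 CPM. Gata4 and Wt1, which are shared by the somatic lineages of the gonad, did not pass, with log2 ratios of -0.05 and 0.04 for Gata4 and -0.49 and -0.46 for Wt1. Of 13 Hox genes, Hoxa7, Hoxd9, Hoxd10 and Hoxd11 were higher and none was lower. Hoxd9 was at 101 and 115 CPM against 37.6 and 50.3 CPM.

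**Figure D2:**
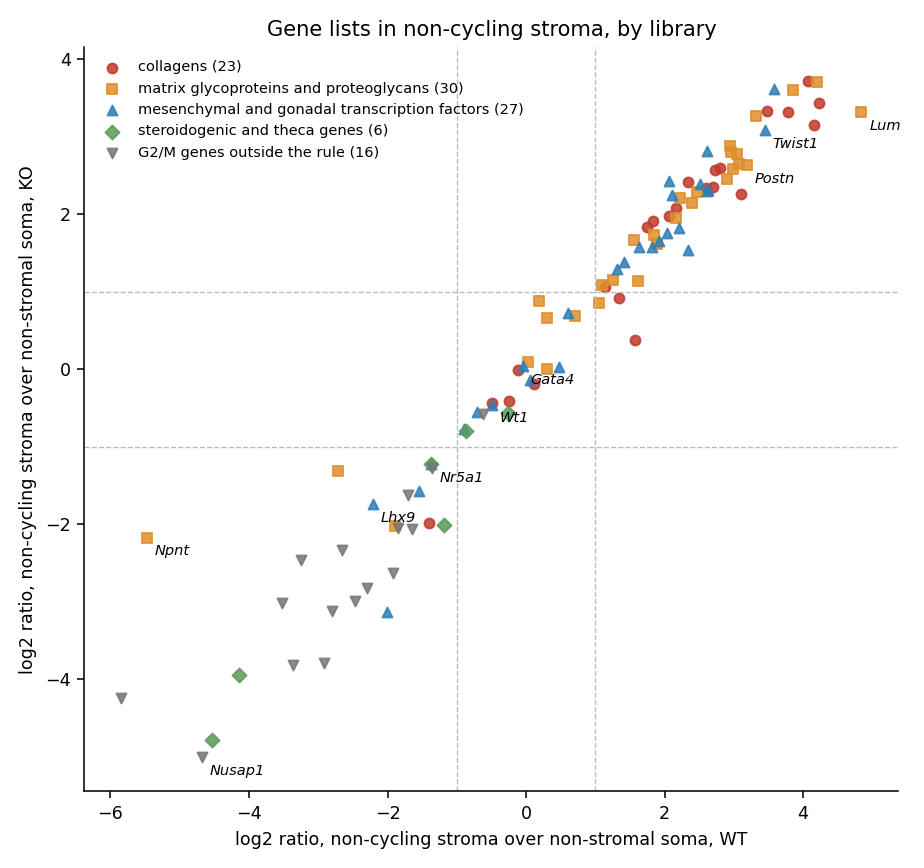
Each point is a gene of 1 of 5 lists, placed by its log2 ratio of non-cycling stroma over non-stromal soma in WT (horizontal) and in KO (vertical), with dashed lines at the limit of 1. Past both upper limits lie 16 of 23 collagens, 21 of 30 matrix genes and 16 of 27 transcription factors, past both lower limits lie 4 of 6 steroidogenic and 15 of 16 G2/M genes with 1 collagen, 3 matrix genes and 4 transcription factors, and Lum is farther to the right (4.84 in WT) than up (3.32 in KO).

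Signalling genes were divided between stroma and its neighbours. Of 35 growth factors, receptors and binding proteins, 18 were higher and 5 were lower. Tgfb2, a ligand of the TGF-β family, was at 149 CPM in WT and 129 CPM in KO, against 23.8 and 23.0 CPM. Cxcl12, a chemokine that attracts germ cells and blood cells, was at 57.1 and 64.9 CPM, with log2 ratios of 3.37 and 2.36. Pdgfrb, the second receptor of platelet-derived growth factors, was at 66.2 CPM in WT and 41.2 CPM in KO, with ratios of 2.81 and 1.82. The ligand of the other receptor, Pdgfa, was lower in the stroma (12.8 and 14.8 CPM against 62.2 and 65.3 CPM), while Pdgfra chose the cells.

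Of 19 WNT pathway genes, 8 were higher (among them the ligand Wnt5a, the receptors Fzd2 and Fzd7, the co-receptor Ror2 and the inhibitor Sfrp1) and 4 were lower (Wnt2b, Wnt6, Rspo1 and Lgr5). Wnt5a was at 149 CPM in WT and 153 CPM in KO, against 29.4 and 30.7 CPM. Rspo1, which amplifies WNT signals in the female gonad, was at 35.3 and 37.9 CPM against 179 and 181 CPM. Its receptor Lgr5 was at 1.83 and 3.92 CPM against 90.8 and 91.9 CPM.

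In the retinoic acid pathway, the carriers and the uptake receptor were higher and the synthesis enzymes lower, with 4 higher and 2 lower of 9. Crabp1, which binds retinoic acid in the cytoplasm, was at 83.5 CPM in WT and 72.4 CPM in KO, against 16.6 and 14.4 CPM, and Crabp2 and Stra6 were also higher. Aldh1a2, which makes retinoic acid, was at 23.0 and 18.96 CPM against 122 and 127 CPM, and Aldh1a1 was lower as well.

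Hedgehog signalling from granulosa cells is known to induce theca cells later in development. Of 8 hedgehog pathway genes, only the co-receptor Gas1 was higher (359 and 349 CPM against 141 and 156 CPM) and 1 was lower. Of all genes, 5.72% were higher and 10.1% were lower. The pathway's target Gli1 held too few UMIs to be counted (21 in WT and 40 in KO), at 5.50 and 8.72 CPM against 0.386 and 0.772 CPM, and Ptch1 was at 12.6 and 9.81 CPM with log2 ratios of -0.33 and -0.29. No steroidogenic gene was higher: of 6 counted, Star, Cyp17a1, Hsd3b1 and Nr5a1 were lower. Cyp17a1, which makes androgens in theca cells, had 1 UMI in the stroma of each library.

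Of 8 smooth muscle genes, 6 were higher, with medians of 1.55 and 1.47. Acta2, smooth muscle actin, was at 336 CPM in WT and 327 CPM in KO, against 53.6 and 76.1 CPM. Of 12 imprinted growth genes, Dlk1, Meg3, Plagl1 and Grb10 were higher and Cdkn1c, a CDK inhibitor, was lower. Dlk1, a membrane protein of progenitors related to Notch ligands, was at 721 and 579 CPM against 115 and 110 CPM. Of 7 genes from a list of Nr3c1, Nr3c2, ligand enzymes and chaperones, only Hsd11b2 was higher and none was lower. Over 3 steroid hormone receptors, Nr3c1 among them, the median log2 ratio was 0.94 in WT and 0.88 in KO, with 1 higher.

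Stress-linked and growth-arrest genes were lower or did not pass in most cases. Of 11 glucocorticoid-responsive genes, Tsc22d3 and Sgk1 were higher and 6 were lower, with medians of -1.08 in WT and -1.03 in KO. Sgk1, a kinase induced by steroids, was at 29.1 and 26.4 CPM against 6.57 and 7.49 CPM, whereas Mt1, a metal-binding metallothionein, was at 11.8 and 19.4 CPM against 776 and 825 CPM. Of 19 immediate early genes, 7 were lower and only Socs3, a feedback inhibitor of cytokine signalling, was higher (73.6 and 63.2 CPM against 29.5 and 23.9 CPM). Of 7 cyclins D and CDK inhibitors, 4 were lower and none was higher. Cdkn1c was at 518 CPM in WT and 463 CPM in KO, against 2244 and 2128 CPM, and Cdkn1b at 38.5 and 38.1 CPM, against 166 and 161 CPM.

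Non-cycling stromal cells were then compared with the cycling stromal cells (160 WT, 309 KO), which met the same stromal criteria but had a sum of at least 2 for Top2a, Mki67 and Cdk1. Here, and between genotypes, a gene was counted when it held at least 100 UMIs over both sides and its level differed by at least 0.25 in ln(UMIs per 10000 + 1), the size limit of the study's methods, which only abundant genes or large ratios reach. Of 6208 genes, 226 (3.64%) were lower in the non-cycling cells in both libraries and 6 (0.0966%) were higher. Nusap1, a spindle protein, was lowest in rank, at 1.83 CPM (WT) and 1.53 CPM (KO) against 327 and 308 CPM. All 16 G2/M genes outside the selection were lower, as were 14 of 19 S phase genes, with medians of -1.28 in both libraries for the latter. The classes were split on Top2a, Mki67 and Cdk1, so lower cell cycle genes follow from the split and are a description.

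The S phase genes were nevertheless present in the non-cycling cells. Compared with non-stromal soma, their median log2 ratio was -0.27 in WT and -0.24 in KO. Of the 20, 2 were lower, beside 10.1% of all genes, so that this count is not particular to the list. In contrast, 15 of 16 G2/M genes were lower, with medians of -2.56 and -2.73. The non-stromal soma had no limit on Top2a, Mki67 and Cdk1, so the lower G2/M genes follow from the selection here too. Mcm6, a subunit of the replicative helicase, was at 86.9 CPM in WT and 85.4 CPM in KO non-cycling stroma, against 131 and 130 CPM in cycling stroma.

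None of 20 collagens, 26 matrix genes and 23 transcription factors passed the limit between non-cycling and cycling stroma, beside the 3.64% and 0.0966% of all genes that did, so that the absence of calls is not particular to these lists. The 6 higher genes were Aldoa, Mxd4, Kdm5b, Lgals7, Aprt and Igfbp5. Mxd4, a MAX partner that opposes MYC, was at 135 and 131 CPM against 74.9 and 70.8 CPM, and Aldoa, the glycolytic aldolase, at 224 and 232 CPM against 124 and 128 CPM. Igfbp5, which binds insulin-like growth factors, was at 2232 and 2284 CPM against 1501 and 1673 CPM. Ogn, the proteoglycan osteoglycin, had a larger ratio than these (log2 1.79 in WT and 2.00 in KO, 27.5 and 34.9 CPM against 7.97 and 8.69 CPM) but was too low for the limit.

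Loss of GR was then examined by comparing KO with WT in the non-cycling stromal cells. Nr3c1 was at 43.5 CPM in WT (166 UMIs) and 11.3 CPM in KO (52 UMIs), a log2 ratio of -1.94 (-2.42 to -1.48). After each cell was thinned to 3000 UMIs, Nr3c1 was seen in 12.5% of WT cells and in 3.09% of KO cells (31.1% and 5.79% before thinning, at medians of 8813 and 5787 UMIs), and KO germ cells held it in 3.24%. The log2 ratio was similar in the other classes, from -1.48 in cycling stroma to -2.64 in germ cells. The reads come from the 3-prime end of transcripts, outside the deleted exon, so that the remaining UMIs check the level of the transcript and not the deletion. The ratio lay between -2.53 and -1.61 in every setting tried, although the low level of the gene put it under the ln limit in 5 of 16 of them.

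The stroma of the 2 libraries was otherwise close. Of 7438 genes, 9 (0.121%) were higher and 11 (0.148%) were lower in KO. The median log2 ratio was 0.00, 95% of genes lay between -0.44 and 0.43, and Pearson's r of ln levels across genes, which are not independent, was 0.996. With 1 library per genotype, none of these differences has a replicate check.

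**Figure D3:**
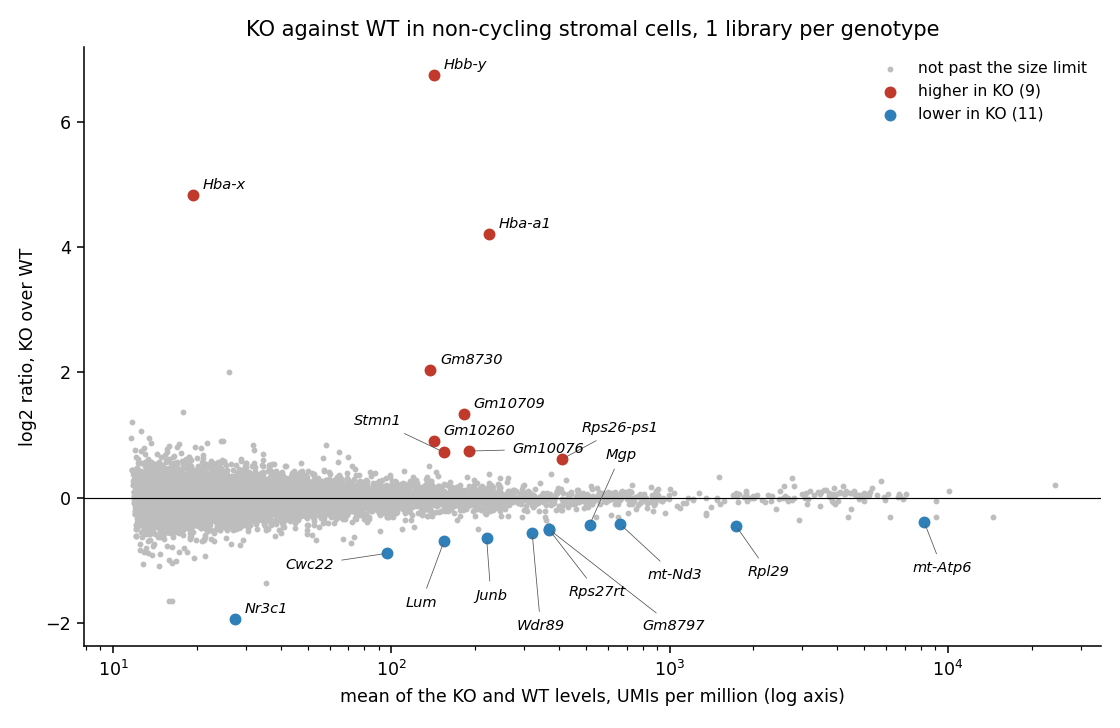
Log2 ratio of KO over WT in non-cycling stromal cells (vertical) against the mean level in UMIs per 1e+06 (horizontal log axis) for the 7438 genes counted. The 9 genes higher and the 11 genes lower in KO are coloured and named, and 3 haemoglobin genes stand highest at 6.75, 4.83 and 4.20.

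The 3 largest ratios rested on 1 cell. Hbb-y, Hba-x and Hba-a1, which encode globin chains, had ratios of 6.75, 4.83 and 4.20, but a single KO barcode held 1258 of 1293 UMIs of Hbb-y, 168 of 171 of Hba-x and 1754 of 1945 of Hba-a1. Without this cell the ratios were 1.55, -0.999 and 0.86 and none passed. The other higher genes were Gm8730, Gm10709, Gm10260, Gm10076 and Rps26-ps1, whose reads near-identical copies can share, and Stmn1. Gm8730, a processed pseudogene, was at 54.2 CPM in WT and 222 CPM in KO, and its log2 ratio of 2.04 in the non-cycling stroma was 2.04 in cycling stroma, 1.93 in pregranulosa cells and 1.73 in germ cells. Stmn1, a regulator of microtubules, was at 116 and 192 CPM, a ratio of 0.72 (0.56 to 0.89), and its ratio was 0.84 in pregranulosa cells, 0.97 in epithelial cells and 0.84 in germ cells.

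Most of the genes that were lower in KO had ratios of the same sign in the other cell classes. Cwc22, a splicing factor, was at 125 CPM in the WT and 67.3 CPM in the KO library (log2 -0.89), with ratios of -1.09 in pregranulosa and -1.21 in germ cells. Junb, an immediate early transcription factor, was at 268 CPM in WT and 172 CPM in KO, a ratio of -0.64 (-0.78 to -0.51), with -0.56 in pregranulosa and -0.73 in epithelial cells but 0.49 in germ cells. The remaining ones outside the matrix were Wdr89, then Rps27rt, Gm8797 and Rpl29, whose reads near-identical copies can also share, and the mitochondrial mt-Nd3 and mt-Atp6. mt-Atp6 was at 9300 CPM in WT and 7116 CPM in KO, beside the lower mitochondrial share of the KO cells.

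Lum and Mgp were the matrix genes that were lower. Lum was at 191 CPM in WT and 119 CPM in KO non-cycling stroma, a log2 ratio of -0.69 (-0.85 to -0.53), and at 160 and 117 CPM in cycling stroma, a ratio of -0.45. Outside the stroma, where Lum was low, the ratio was positive, at 0.14 in pregranulosa cells, 2.20 in epithelial cells, 0.84 in all non-stromal soma and 0.89 in germ cells. It kept its direction in every setting tried, and beside the stricter size limits it missed the limit when the selection was applied to thinned counts (-0.50) or when cells with any UMI of Top2a, Mki67 or Cdk1 were left out (-0.45). Mgp, matrix Gla protein, an inhibitor of calcification, was at 593 and 439 CPM (-0.43), and missed the limit in 6 of 16 settings, among them thinning each cell (-0.34) and the removal of the single KO cell with the globin UMIs (-0.43). Its ratio was -0.62 in cycling stroma, -0.40 in pregranulosa cells and -0.25 in epithelial cells, but 0.89 in germ cells.

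The other genes of the lists did not pass. Of all genes only 0.121% were higher and 0.148% lower, so that the absence of calls is not particular to these lists. The collagens had a median log2 ratio of -0.16 with 0 of 22 counted past the limit, and 14 of the 22 lay below 0, the matrix genes one of -0.08 and the transcription factors one of -0.01. Of 8 glucocorticoid-responsive genes none passed (median -0.06). Fkbp5, a target and chaperone partner of GR, was at 48.2 CPM in WT and 39.4 CPM in KO (log2 -0.29, -0.59 to 0.02), and Tsc22d3, known as GILZ, at 80.6 and 81.3 CPM (0.01, -0.21 to 0.23). Of 16 immediate early genes, Junb passed, 14 lay below 0 and the median was -0.24. Fos was at 439 and 383 CPM (-0.20) and Ier2 at 420 and 310 CPM (-0.44), under the limit.

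Some ratios were larger but belonged to genes whose low level kept them under the ln limit. Pdgfrb was at 66.2 and 41.2 CPM (-0.69, -0.96 to -0.41), Postn, the matrix protein periostin, at 36.1 and 22.7 CPM (-0.67, -1.05 to -0.29), and Lhx9 at 44.5 and 69.3 CPM (0.64, 0.37 to 0.92). Bmp4 had 36 UMIs in WT and 13 in KO, too few to be counted. None of these reached the ln limit. Lhx9 is 1 of the 10 surface epithelium markers, which summed to 64.7 CPM in WT and 104 CPM in KO non-cycling stroma. The pregranulosa markers had a median log2 ratio of 0.40 between the genotypes, with 6 of 8 above 0 and 2 below. The part of RNA from other cells in the Lhx9 value was not tested.

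The cells were also compared with one another. Each was thinned to 3000 UMIs and the variance of a gene's UMIs per cell was divided by its mean, a ratio of 1 being that of random sampling. Over 3679 genes with a mean of at least 0.1 UMI in both libraries the median ratio was 1.04 in each. The 15 most variable were Malat1, Hbb-bs, Gfod2, Gm42418, Ptn, Mgp, Dcn, Igfbp5, Fos, Tagln, Acta2, Id3, Lum, Dlk1 and Itm2a. Hbb-bs was concentrated in WT, where the highest cell held 71.6% of its thinned UMIs. In KO the highest cell held 22.4%, and 15.7% of cells had a UMI. Gfod2 was seen in 6.35% of WT and 3.86% of KO cells. Ptn, in contrast, was seen in 95.1% and 95.9% of cells and reached 45 UMIs in a WT and 37 in a KO cell, with ratios of 4.73 and 3.48. Dcn had ratios of 4.61 and 3.22 and was seen in 63.5% and 72.3% of cells, and Lum had ratios of 2.71 and 2.62 and was seen in 26.6% and 19.9%.

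Correlations across cells (425 in WT, 777 in KO, each within 1 library) were weak for most pairs. They are given as a description, since cells of a library share its capture and embryos. Of 6.77e+06 gene pairs, 994 had a Pearson r of at least 0.2 in size and of the same sign in both. The pairs named here were picked by hand. Lum varied with Dcn (r = 0.49 in WT, 0.32 in KO), with Dlk1 (0.39 and 0.26) and with the homeobox factor Meis2 (0.34 and 0.26). Kctd14, which encodes a protein with a potassium channel tetramerisation domain, varied with Serpinb6a, a protease inhibitor (0.34 and 0.27), and with Rgs2, a regulator of G protein signalling (0.23 and 0.25). Between these groups the correlations were negative and small, as for Lum with Kctd14 (-0.22 and -0.18) and for Sfrp1 with Kctd14 (-0.30 and -0.23). Acta2 varied with Tagln, both contractile proteins of smooth muscle (0.39 and 0.39), and Fos with Egr1 (0.36 and 0.41).

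**Figure D4:**
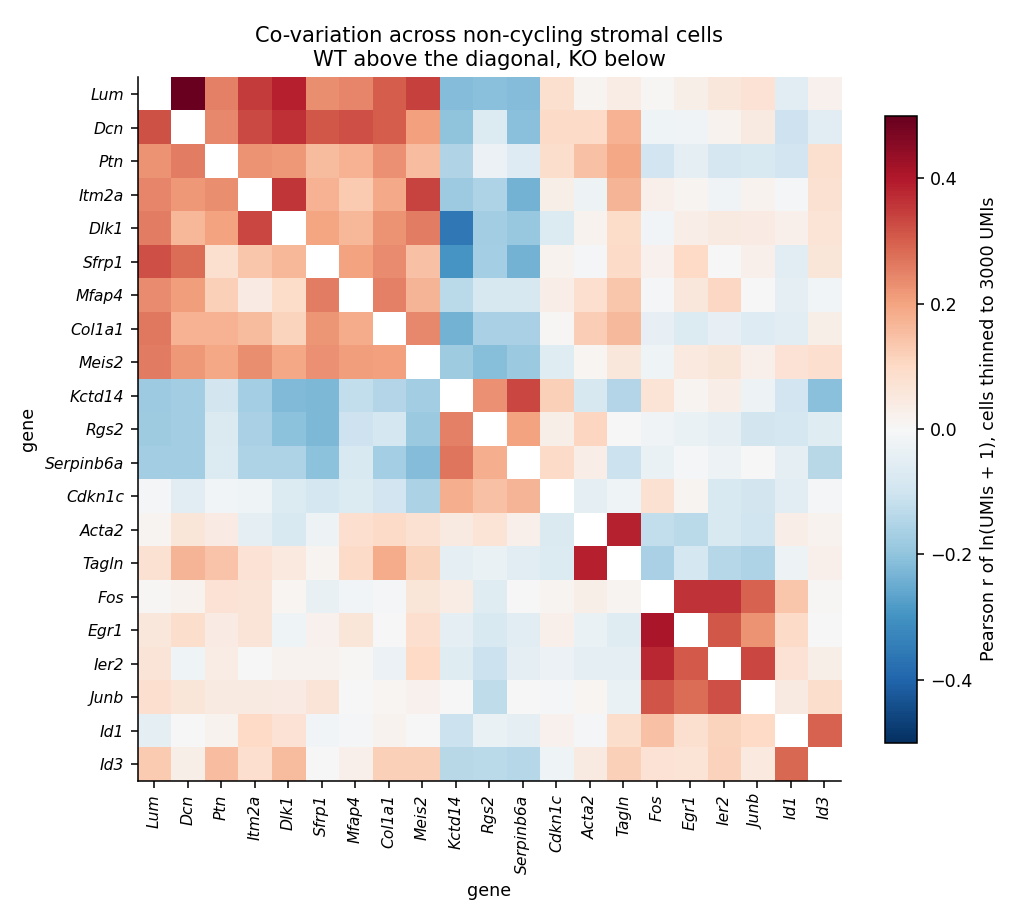
Pearson r of ln(UMIs + 1) across non-cycling stromal cells thinned to 3000 UMIs, for 21 genes on both axes, with WT above and KO below the diagonal. The genes and their order were picked by hand, so that the blocks are a description. A block from Lum to Meis2 and a block from Kctd14 to Serpinb6a are positive within and negative between each other, and Acta2 with Tagln and the genes from Fos to Junb form smaller blocks.

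The share of cells with a UMI differed widely between genes of these groups, and a cell without a UMI at this depth may still express the gene. At 3000 UMIs per cell, drawn anew, Ptn was seen in 94.1% of WT cells and Col1a1, which chose the cells, in 89.9%. In the same draw Lum was seen in 27.3% of WT and 20.3% of KO non-cycling stromal cells (37.2% and 27.9% before thinning), against 0.114% and 0.488% of pregranulosa cells. Kctd14 was seen in 29.9% and 28.2% of the stromal cells (42.8% and 39.3% before thinning), but in 92.0% and 88.1% of pregranulosa cells, where its level was 1286 CPM in WT and 1062 CPM in KO against 220 and 179 CPM in the stroma. The part of RNA from pregranulosa cells in the Kctd14 values was not tested. Hsd11b2, in contrast, was seen in 20.7% and 19.6% of the stromal cells (44.5% and 30.6% before thinning) and in 0.457% and 0.434% of pregranulosa cells, whose median depth of 12502 and 8345.5 UMIs was higher. Meis2 was seen in 31.5% and 30.5% of the stromal cells (56.9% and 43.6% before thinning) and in 4.00% and 3.52% of pregranulosa cells.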

How the data were processed

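The deposited values were whole-number UMI counts per gene and barcode, made by the authors with Cell Ranger (3.0.2 per the file headers) from a droplet 3-prime library of each genotype, with no normalization. The submitters' processing notes name mm10 and Seurat 3.2.3. Libraries held 1.68e+08 (WT) and 1.86e+08 (KO) UMIs. The members, gene lists and limits were chosen with earlier results of these data known. Counts were summed per class, and CPM carry exact Poisson intervals and log2 ratios exact conditional binomial intervals (95%, counting error only), a gene at 0 being bounded with 3 UMIs. Genes used in the selection were left out of the named genes: the 20 highest and 10 lowest against non-stromal soma by the smaller ratio of the libraries, 8 in each direction against cycling stroma, up to 10 in each direction between genotypes, the 15 most variable, and any gene of a list. Kctd14, Serpinb6a and Rgs2, named for their correlations or shares, are in none of these sets and were picked by hand. Cells were thinned at random (seed 1). Doublets were not removed, and Scrublet (scanpy 1.11.5) called 1 WT and 9 KO members (3.71% and 8.11% of all cells). Of 27998 gene identifiers, 99.0% matched GENCODE M21 (GRCm38). Python 3.11.15, numpy 2.4.6, scipy 1.17.1 and pandas 2.3.3 were used, and the counting was tested on simulated data. Alternatives covered the limits on cells and markers, doublets, scaling, averaging over cells, thinning, the UMI minimum and the size limits. Some list members are not reported here.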

Additional observations from a re-analysis of the deposited data

Results flagged for a closer look

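Barcodes outside the limits on cells also held the stromal combination. Of 1918 WT barcodes under 3000 UMIs or with 10% or more mitochondrial UMIs, 22 met every marker criterion of non-cycling stroma, and of 1946 KO barcodes 44 did. These signals lie in data that no comparison used. Of the 22, 16 were under the UMI limit and 17 at or over the mitochondrial limit, with a median of 1968.5 UMIs, and of the 44, 41 and 22 were, with a median of 2001 UMIs.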

How the results depend on the processing

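Of 110 results under 18 settings (15 planned, 3 chosen after seeing the data), giving 1402 values beside the main ones, 8 reversed. Many more moved, that is, left the counting interval of the main value or a set tolerance. Of the values for cell numbers, shares, gene counts and Nr3c1, 22 moved and 80 stayed. Of the other values, 284 moved and 1008 stayed. The number of non-cycling stromal cells moved with the selection. A collagen sum of at least 30 left 196 WT and 338 KO cells (9.21% and 7.42% of soma). Without any UMI of Top2a, Mki67 or Cdk1, 276 WT cells remained and the order of the shares turned (13.0% in WT, 13.8% in KO). This setting depends on depth, which was lower in KO. A germ marker sum under 3 gave 17.3% and, with 418 KO cells, 13.7%, and an Nr3c1 log2 ratio of -2.53. The selection on thinned counts (added) gave 249 and 475 cells (11.99% and 10.9%). Leaving out cells with a UMI of Fst, Wnt6, Kitl, Irx3 or Foxl2 (added) left 275 WT cells (12.9%, and 11.9% in KO).

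With a size limit of 0.5, 4 genes were higher and 0 lower in KO (9 and 11 in the main count). With no UMI minimum 1412 genes were higher and 3585 lower than in non-stromal soma. Hba-x reversed with a germ marker sum under 3 (-0.45), without Scrublet doublets (-1.56) and without the KO cell richest in haemoglobin (-0.999). Against pregranulosa cells only, in WT, C1qa (1.53), Lyz2 (2.12), Cxcl2 (1.53), C1qb (3.12) and Tyrobp (2.12) had positive values, which are bounds from at most 3 UMIs on each side and give no direction. Of the 20 genes counted between genotypes, Gm8730 and Gm10709 passed in all 16 settings tried. No setting moved the median log2 ratio of all genes by 0.1. No paired analysis was possible because each genotype is 1 library. The causes were not tested. KO depth limits low genes: those under 100 UMIs were not counted.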
